A study of Mus musculus with 18 samples.

Results

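The genes of serine synthesis and of the folate-bound transfer of carbon units that follows it were examined in 3 adipose tissues of the mouse. They were Phgdh, Psat1, Psph, Shmt1, Mthfd1, Shmt2, Mthfd2, Mthfd1l and Aldh1l2, taken by gene symbol, 9 of the 54347 rows of the table of estimated counts. All 9 passed the filter on low counts, which left 18728 genes for testing. Psat1 was chosen by its CPM and its iBAT differences: its level in brown fat was already known from these libraries to be much lower than in white fat. Its differences between brown and white fat are therefore given as a description without a test. The other 8 genes entered for their place in the pathway, and the question asked of them was whether they follow Psat1.

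Polyadenylated RNA came from 6 mice at 12 weeks of age, each of which gave interscapular brown fat (iBAT) and the white fat of the inguinal (iWAT) and epididymal (eWAT) depots. The 3 wild type mice and the 3 knock out mice, homozygous for a deletion that removes exon 1 of the long noncoding RNA gene Gm15551, were litter mates on the C57BL/6N background. They received chow diet by the study's methods. The study's results text instead speaks of high-fat and control diet for its adipose transcriptomes. Each of the 6 groups of tissue and genotype held 3 libraries. The deletion was made with CRISPR/Cas9 and is carried in the germline, so it was not restricted to one cell type. Gm15551 itself, with 40 to 316 counts in the wild type libraries and 0 to 4 in the knock out libraries, matched the genotype labels in all 18.

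Cells make serine from an intermediate of glycolysis. The dehydrogenase PHGDH takes the first step, the aminotransferase PSAT1 the second and the phosphatase PSPH the third. Serine hydroxymethyltransferase then splits serine into glycine and a carbon unit that is bound to folate, and this happens in the cytosol (SHMT1) as well as in mitochondria (SHMT2). In mitochondria MTHFD2 oxidises the carbon unit, MTHFD1L then releases it as formate, and ALDH1L2 oxidises it to carbon dioxide. In the cytosol MTHFD1 interconverts the folate forms that feed purine, thymidylate and methionine synthesis. In many cell types the transcription factor ATF4 is known to switch on Phgdh, Psat1, Psph, Shmt2 and Mthfd2 together.

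The promoter sequences of 3 members are shown because the results below turn on them: Phgdh and Psat1 were low in iBAT together, and Shmt1 was high there. Capitals mark the motifs searched on both strands, CCAAT (the box bound by NF-Y) and GGGCGG (the GC box), with their reverse complements ATTGG and CCGCCC. The sequences are those of RefSeq on GRCm38.p6, given 5′ to 3′ on the minus strand and cut before the first base of any annotated exon. Psat1 has a second annotated start, which is not shown and which holds the GC boxes counted for Psat1 below. Also counted but not shown are a CCAAT of Phgdh at -23, which the cut divides, and a CCAAT of Psat1 at 23, after the start. Phgdh (ENSMUSG00000053398.11) spans chr3:98313170-98339990, Psat1 (ENSMUSG00000024640.9) spans chr19:15904678-15947337 and Shmt1 (ENSMUSG00000020534.14) spans chr11:60788104-60811718, all on the minus strand.
Phgdh, chr3:98339991-98340219: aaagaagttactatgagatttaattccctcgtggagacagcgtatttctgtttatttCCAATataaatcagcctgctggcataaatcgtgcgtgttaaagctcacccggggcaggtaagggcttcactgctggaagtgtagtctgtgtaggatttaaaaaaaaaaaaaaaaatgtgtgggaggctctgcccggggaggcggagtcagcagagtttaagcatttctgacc
Psat1, chr19:15925060-15925309: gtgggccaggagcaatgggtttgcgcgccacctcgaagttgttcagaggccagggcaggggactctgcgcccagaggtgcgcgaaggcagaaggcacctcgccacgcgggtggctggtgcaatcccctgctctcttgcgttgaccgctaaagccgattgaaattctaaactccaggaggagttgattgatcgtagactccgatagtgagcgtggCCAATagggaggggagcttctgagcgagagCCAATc
Shmt1, chr11:60811266-60811466: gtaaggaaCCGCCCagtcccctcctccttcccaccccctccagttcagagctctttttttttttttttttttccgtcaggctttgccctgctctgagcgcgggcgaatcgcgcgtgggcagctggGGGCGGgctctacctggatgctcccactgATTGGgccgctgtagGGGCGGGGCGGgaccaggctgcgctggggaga
In windows from 250 bases before to 50 bases after each start, CCAAT stood in 6 of the 9 windows found for 8 members, compared with 37.4% of all 32851 windows. GGGCGG stood in 5 of the 9, compared with 35.7%. The composite site of ATF4 and C/EBP, TGATGNAAT, was in 0 of the 9 and in 0.965% of all windows, and the E-box CACGTG was in 0 of the 9 and in 7.15% of all. These windows hold only the sequence next to the start, and Aldh1l2 had no entry.

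The remaining members lie on other chromosomes or strands. Psph (ENSMUSG00000029446.14) spans chr5:129765558-129787449 on the minus strand. Mthfd1 (ENSMUSG00000021048.7) spans chr12:76255298-76319803 on the plus strand. Shmt2 (ENSMUSG00000025403.5) spans chr10:127517123-127522444 on the minus strand, and Mthfd2 (ENSMUSG00000005667.8) spans chr6:83305691-83325908 on the same strand. Mthfd1l (ENSMUSG00000040675.17) spans chr10:3973118-4167081 on the plus strand and Aldh1l2 (ENSMUSG00000020256.14) spans chr10:83487450-83534140 on the minus strand. All 9 are protein-coding. Phgdh has many processed pseudogenes, but rows for its near copies held at most 11 counts in any library. Psph shares 452 identical bases with Cct6a, Shmt1 shares 184 with Smcr8 and Aldh1l2 shares 1056 with D10Wsu102e. Since it is not given whether counting used strand, the division of reads between these neighbours is uncertain, which matters most for Aldh1l2 with 3 to 100 counts a library beside 542 to 2355 for D10Wsu102e.

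The libraries held 14997901 to 34389586 counts. Brown adipocyte markers summed to 7604 to 13292 CPM in the iBAT libraries (CPM are counts scaled to a common library size, after TMM scaling), while iWAT held 28.8 to 353 CPM and eWAT 7.87 to 23.1 CPM. All 8 passed the test as higher in iBAT, against both iWAT and eWAT. Adipocyte markers were present in every library. However, 4 white fat libraries also carried RNA of other tissues. In eWAT knock out replicate 3 the epididymis markers summed to 4823 CPM, compared with 0.172 to 16.8 CPM in the other eWAT libraries, with Crisp1, Spink8 and Adam7 leading and Lcn9 at 0. In iWAT wild type replicate 3 and iWAT knock out replicate 2 all 11 lymph node markers stood above the other iWAT libraries, at sums of 1453 and 580 CPM against 7.14 to 22.1 CPM. In iWAT knock out replicate 1 all 10 skeletal muscle markers stood above the rest, at 4649 CPM against at most 6.66 CPM. In bulk tissue, fewer cells of a type cannot be told apart from less RNA per cell.

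Phgdh followed Psat1, and Psph did not. Psat1 was measured at 4.81, 5.31 and 8.92 CPM in iBAT (lowest, median and highest of 6 libraries), from 57.1 over 80.3 to 100.2 CPM in iWAT, and from 137 over 160 to 228 CPM in eWAT. Phgdh was measured at 8.69, 10.4 and 20.9 CPM in iBAT, from 91.5 over 163 to 214 CPM in iWAT, and from 219 over 259 to 345 CPM in eWAT. For both genes every iBAT library lay far below every white fat library, and the iWAT libraries lay below the eWAT libraries. Psph went the other way, with 37.7, 40.8 and 46.4 CPM in iBAT, from 12.6 over 19.1 to 22.8 CPM in iWAT, and from 15.8 over 18.7 to 53.6 CPM in eWAT. Its iBAT libraries lay above all iWAT libraries and above 5 of the 6 eWAT libraries, the exception being eWAT knock out replicate 3.

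**Figure D1:**
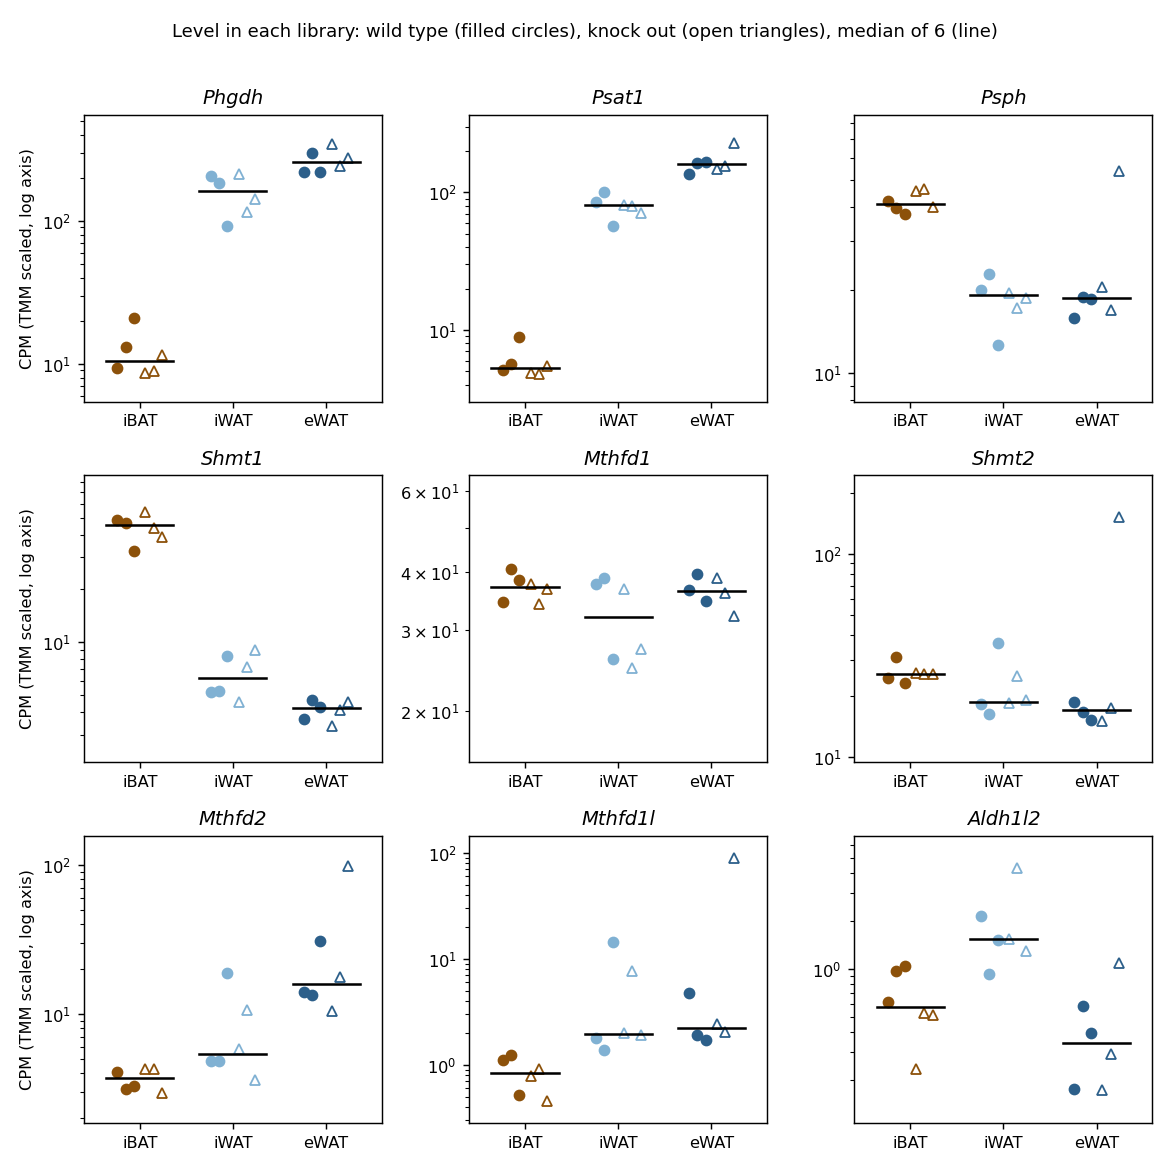
CPM of each gene in each library on log axes, by tissue, with wild type libraries as filled circles, knock out libraries as open triangles and the median of 6 as a line. Phgdh and Psat1 sit lowest in iBAT and Shmt1 highest, and a single eWAT knock out library stands apart for Shmt2 (152.6 CPM), Mthfd2 (97.7 CPM), Mthfd1l (90.7 CPM) and Psph (53.6 CPM).

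On the log2 scale Phgdh was lower in iBAT than in iWAT (-3.73 ± 0.26, log2 difference ± SE, edgeR adjusted p = 9.62e-09) and than in eWAT (-4.48 ± 0.27, edgeR adjusted p = 1.15e-09). In mean CPM that is 13.2-fold and 22.1-fold. Psat1 differed by -3.76 ± 0.19 from iWAT and by -4.84 ± 0.19 from eWAT, or 13.6-fold and 28.6-fold in mean CPM. Psph was higher in iBAT than in iWAT (log2 difference 1.17 ± 0.24, edgeR adjusted p = 0.000579) and than in eWAT (0.83 ± 0.24, edgeR adjusted p = 0.00720) with TMM scaling, but with library totals alone it was 0.38 higher than in iWAT (edgeR adjusted p = 0.175) and changed sign against eWAT, at -0.07. The iBAT libraries are shared by both comparisons. Without eWAT knock out replicate 3, Psph in the 5 remaining eWAT libraries ranged from 15.8 to 20.5 CPM, below every iBAT library, and its difference to eWAT was 1.195 ± 0.13.

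Transcripts of the mitochondrial genome took 22.9% to 27.0% of the counts in iBAT and 3.77% to 9.64% in white fat, and the TMM factors lay between 0.617 and 0.744 for iBAT and between 1.06 and 1.44 for white fat. With TMM the median log2 difference of all genes was -0.14 between iBAT and iWAT and -0.17 between iBAT and eWAT, and 55.8% and 55.3% of the genes past the threshold were lower in iBAT. With library totals the medians were -0.95 and -1.04, and 89.9% and 89.3% of them were lower in iBAT. Relative to the median of all genes, the iBAT minus iWAT difference with library totals was -3.52 for Phgdh, -3.58 for Psat1, 1.34 for Psph, 2.84 for Shmt1 and 0.39 for Mthfd1.

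Per length, Phgdh led the members in white fat. TPM values (CPM-like levels that are first divided by the merged exon length) can be compared between genes within a tissue but carry no TMM scaling. In eWAT Phgdh stood at 381 ± 61.9 TPM (SD, n = 6) and Psat1 at 139 ± 30.8 TPM, and in iWAT at 199.9 ± 50.02 TPM and 58.6 ± 6.39 TPM. In iBAT they stood at 6.61 ± 3.12 TPM and 1.84 ± 0.66 TPM. Psph was at 12.8 ± 0.52 TPM in iBAT, 13.4 ± 1.19 TPM in iWAT and 20.01 ± 13.0 TPM in eWAT. Thus with merged exon length the ratio of Phgdh to Psat1 stayed within 2.07 to 4.50 over all 18 libraries, whereas the ratio of Phgdh to Psph lay between 0.332 and 0.963 in iBAT, between 11.7 and 19.2 in iWAT and between 8.98 and 29.3 in eWAT. With the length of the longest transcript instead, mean levels in eWAT were 402 TPM for Phgdh and 182 TPM for Psat1, and in iBAT 7.58 and 2.62 TPM. The ratio of Phgdh to Psat1 then fell below 2.07 in eWAT knock out replicate 3, at 443 and 265 TPM.

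**Figure D2:**
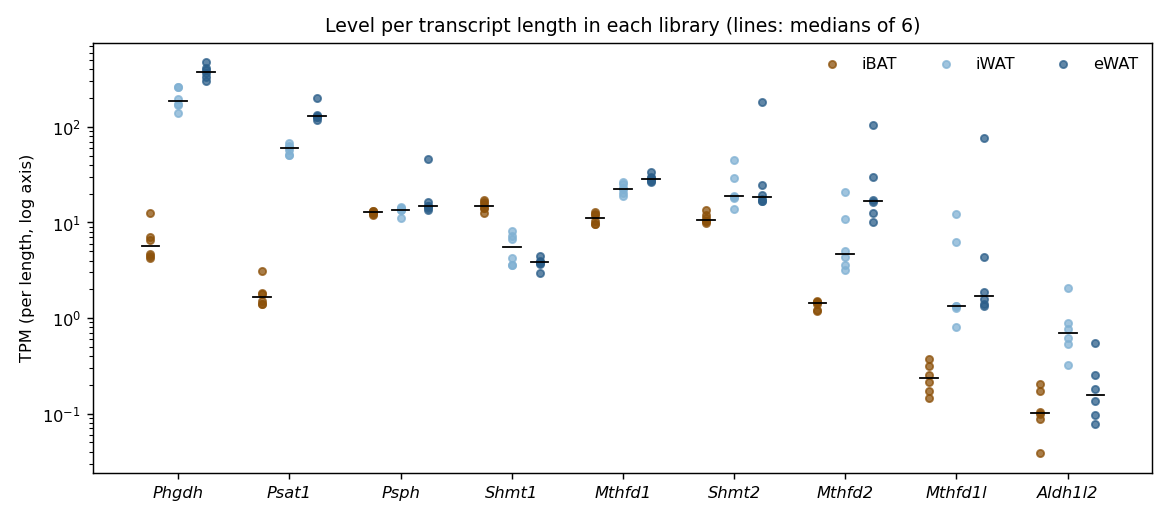
TPM of each gene in each library on a log axis, with the 3 tissues side by side and lines at the medians of 6. In white fat Phgdh and Psat1 are the most abundant members per length, and in iBAT they drop below Shmt1, Psph, Shmt2 and Mthfd1 by mean TPM.

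In iBAT the order by mean TPM was Shmt1, Psph, Shmt2, Mthfd1, Phgdh, Psat1, Mthfd2, Mthfd1l and Aldh1l2. The ranges of neighbouring genes overlapped from Shmt1 down to Phgdh, were separate between Phgdh and Psat1 and between Mthfd2 and Mthfd1l, and overlapped for the other pairs. Shmt2 and Mthfd1 changed places by median TPM (10.7 and 11.1), and by mean TPM with the length of the longest transcript (13.2 and 13.3). In iWAT the order was Phgdh, Psat1, Shmt2, Mthfd1, Psph, Mthfd2, Shmt1, Mthfd1l and Aldh1l2, with Phgdh and Psat1 each separate from the next gene, as was Mthfd1 from Psph. In eWAT it was Phgdh, Psat1, Shmt2, Mthfd2, Mthfd1, Psph, Mthfd1l, Shmt1 and Aldh1l2, with Phgdh separate from Psat1 and Shmt1 from Aldh1l2. The eWAT order rests on knock out replicate 3, since by median TPM Mthfd1 (28.6) stood above Shmt2 (18.5) and Mthfd2 (16.9), and Shmt1 (3.84) above Mthfd1l (1.72). In iWAT too, Mthfd1 (22.6) stood above Shmt2 (18.7) and Shmt1 (5.49) above Mthfd2 (4.71) by median TPM. The highest iWAT levels of Shmt2 (44.8 TPM) and Mthfd2 (20.6 TPM) were those of wild type replicate 3.

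The cytosolic enzymes did not follow Psat1. Shmt1, the cytosolic serine hydroxymethyltransferase, was measured at 32.8, 45.5 and 54.5 CPM in iBAT (lowest, median and highest), from 4.60 over 6.28 to 9.06 CPM in iWAT, and from 3.35 over 4.22 to 4.71 CPM in eWAT. All iBAT libraries lay above all white fat libraries. Its log2 difference was 2.74 ± 0.18 to iWAT (edgeR adjusted p = 4.94e-09) and 3.42 ± 0.19 to eWAT (edgeR adjusted p = 5.17e-10), or 6.69-fold and 10.7-fold in mean CPM. With library totals these differences were 1.89 and 2.54, and both still passed the test. Mthfd1, the cytosolic enzyme with 3 activities on folate, was measured at 34.2, 37.2 and 40.6 CPM in iBAT, from 24.8 over 32.0 to 38.9 CPM in iWAT, and from 32.1 over 36.3 to 39.7 CPM in eWAT, so its groups overlapped. The log2 difference of Mthfd1 was 0.22 ± 0.11 to iWAT (edgeR adjusted p = 0.105) and 0.03 ± 0.11 to eWAT (edgeR adjusted p = 0.853) with TMM, and reversed to -0.57 (edgeR adjusted p = 2.42e-05) and -0.84 (edgeR adjusted p = 2.86e-07) with library totals, which is above the median of all genes on that scale.

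The mitochondrial enzymes differed among themselves. Shmt2, the mitochondrial serine hydroxymethyltransferase, was measured at 23.3, 25.8 and 31.0 CPM in iBAT, from 16.3 over 18.8 to 36.4 CPM in iWAT, and from 15.1 over 17.1 to 152.6 CPM in eWAT. Its iBAT libraries lay above all white fat libraries but 2 iWAT libraries, wild type replicate 3 and knock out replicate 2, and eWAT knock out replicate 3. Over all libraries its log2 difference was 0.21 ± 0.50 to iWAT (edgeR adjusted p = 0.745) and -0.43 ± 0.52 to eWAT (edgeR adjusted p = 0.496). Without the 4 libraries with other tissue, Shmt2 was higher in iBAT, by 0.54 ± 0.11 against iWAT (edgeR adjusted p = 0.00103) and by 0.64 ± 0.09 against eWAT (edgeR adjusted p = 3.60e-05). Thus the value over all libraries and the value without these 4 have opposite signs against eWAT. With library totals Shmt2 turned to -0.65 against iWAT (edgeR adjusted p = 0.290) and was at -1.40 against eWAT (edgeR adjusted p = 0.0371). Within a library the ratio of Shmt2 to Shmt1 in TPM lay between 0.596 and 0.887 in iBAT, between 2.64 and 5.45 in iWAT and between 4.42 and 41.4 in eWAT, so only in iBAT did the cytosolic transcript outweigh the mitochondrial one per length, in all 6 libraries.

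Mthfd2, the mitochondrial dehydrogenase and cyclohydrolase, was measured at 2.96, 3.69 and 4.28 CPM in iBAT, from 3.60 over 5.34 to 18.8 CPM in iWAT, and from 10.4 over 15.8 to 97.7 CPM in eWAT. Each eWAT library lay above each iBAT library, while iWAT overlapped with iBAT. The log2 difference of Mthfd2 to eWAT was -3.02 ± 0.57 (edgeR adjusted p = 0.000253), and -2.20 ± 0.24 without the 4 libraries with other tissue (edgeR adjusted p = 2.82e-06). Against iWAT it was -1.17 ± 0.54 (edgeR adjusted p = 0.0761), and -0.23 ± 0.28 without them (edgeR adjusted p = 0.549). Without eWAT knock out replicate 3 alone, Mthfd2 passed against iWAT (-1.11 ± 0.37, edgeR adjusted p = 0.0173), and it did so without iWAT knock out replicate 3 (-1.35, edgeR adjusted p = 0.0481) and with library totals (-2.08, edgeR adjusted p = 0.00549).

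Mthfd1l, the formate-releasing synthetase of mitochondria, was measured at 0.451, 0.842 and 1.23 CPM in iBAT (7 to 19 counts), from 1.38 over 1.94 to 14.3 CPM in iWAT, and from 1.73 over 2.22 to 90.7 CPM in eWAT. All iBAT libraries lay below all white fat libraries. The log2 difference of Mthfd1l was -2.58 ± 1.06 to iWAT (edgeR adjusted p = 0.0482) and -3.99 ± 1.18 to eWAT (edgeR adjusted p = 0.00894), and without the 4 libraries -1.01 ± 0.37 (edgeR adjusted p = 0.0397) and -1.60 ± 0.33 (edgeR adjusted p = 0.000844). Without the pair of lymph node libraries Mthfd1l was at -1.01 ± 1.03 to iWAT (edgeR adjusted p = 0.456). With the mouse as a block the Mthfd1l calls did not pass, at edgeR adjusted p = 0.0896 and 0.0626. The Mthfd1l call against iWAT was lost in 14 of 30 alternatives, among them those without any 1 of the iBAT libraries, iWAT wild type replicate 3, iWAT knock out replicate 2 or eWAT wild type replicate 1 (edgeR adjusted p = 0.0556 to 0.279). That against eWAT was lost in 2 of 30. Aldh1l2, which oxidises formyl folate in mitochondria, was measured at 0.235, 0.572 and 1.03 CPM in iBAT, from 0.933 over 1.53 to 4.28 CPM in iWAT, and from 0.172 over 0.343 to 1.09 CPM in eWAT. Aldh1l2 was lower in iBAT than in iWAT (log2 difference -1.55 ± 0.50, edgeR adjusted p = 0.0149), and its difference to eWAT was 0.56 ± 0.51 (edgeR adjusted p = 0.371). Without the pair of lymph node libraries the Aldh1l2 difference to iWAT was -1.203 ± 0.50 (edgeR adjusted p = 0.0606), and without all 4 libraries its difference to eWAT was 1.03 ± 0.39 (edgeR adjusted p = 0.0374). With library totals the Aldh1l2 difference to eWAT turned to -0.31 (edgeR adjusted p = 0.613).

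Thus, of the 8 members other than Psat1, 2 were higher in iBAT than in iWAT (Psph and Shmt1), 3 were lower (Phgdh, Mthfd1l and Aldh1l2) and 3 did not pass the test, in a comparison in which 54.3% of all genes were called, 24.0% higher and 30.3% lower. Against eWAT 2 were higher (Psph and Shmt1), 3 were lower (Phgdh, Mthfd2 and Mthfd1l) and 3 did not pass, with 54.6% of all genes called, 24.4% higher and 30.2% lower. Against iWAT the groups did not overlap for 4 of the 8, 2 higher and 2 lower, compared with 34.6% of all genes, 17.7% higher and 16.9% lower. Against eWAT they did not overlap for 4 of the 8, 1 higher and 3 lower, compared with 37.3% of all genes, 18.8% higher and 18.6% lower. Their median log2 difference was -0.48 to iWAT and -0.20 to eWAT, beside the medians of all genes given above. The 5 calls of 8 in each comparison are a share near that of all genes, and the direction was mixed. With library totals 1 of the 8 was higher (Shmt1) and 5 were lower in each comparison, where 12804 of 18728 genes were called lower against iWAT and 13159 against eWAT. Without the 4 libraries with other tissue 6 of the 8 passed against iWAT, 3 in each direction, with 9127 of 20162 genes called, and 7 of the 8 passed against eWAT, 4 higher and 3 lower, with 11513 called.

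**Figure D3:**
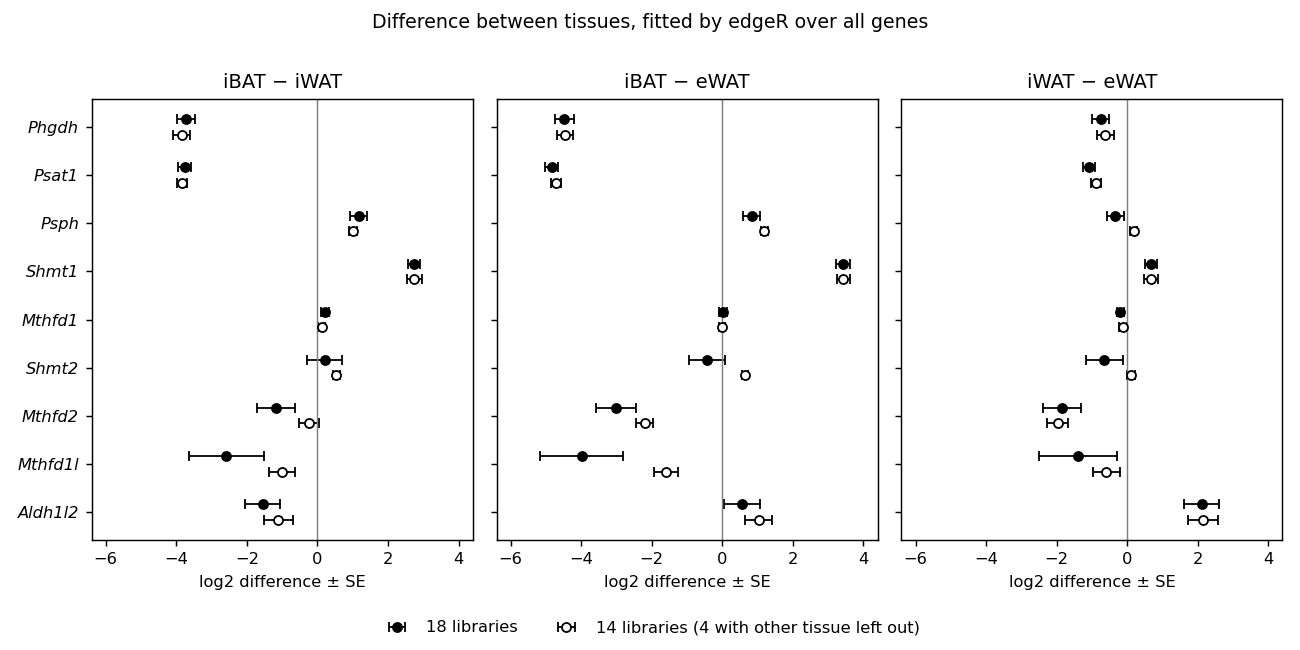
Log2 differences with standard errors between the 3 pairs of tissues, from all 18 libraries (filled) and from the 14 left after removing 4 white fat libraries with RNA of other tissue (open), TMM-scaled. Phgdh and Psat1 are at -3.73 and -3.76 against iWAT while Shmt1 is at 2.74, the open symbols of Mthfd2 and Mthfd1l lie nearer 0 than the filled ones in both iBAT panels and that of Shmt2 changes sign against eWAT, and Psph and Aldh1l2 (against eWAT), Shmt2 (against iWAT) and Mthfd1 (against both) change sign with library totals, which are not plotted.

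Over all 18 libraries Phgdh was also the gene whose levels were most like those of Psat1, with a Pearson correlation of 0.990 on log2 CPM and place 1 of 18727 genes. Among the next were Os9, Alcam, P4hb, Atp5g1, Cers6, Oat, Atp2b4 and Apcdd1, with correlations of 0.985 to 0.977. Shmt1 stood at the other end, with -0.986 and place 18720 of 18727. Psph was at -0.688, Mthfd2 at 0.714, Mthfd1l at 0.598, Shmt2 at -0.067, Mthfd1 at -0.174 and Aldh1l2 at 0.066. The libraries fall into 3 tissues, so these values describe points that share a tissue. Within the 6 libraries of a tissue, Phgdh was at 0.976 with Psat1 in iBAT, 0.773 in iWAT and 0.129 in eWAT, and Shmt1 at -0.829, -0.733 and 0.688. Psph was at -0.786 in iBAT, 0.932 in iWAT and 0.929 in eWAT, the sign in white fat being opposite to that over all libraries. In eWAT, where knock out replicate 3 was high for these genes, Aldh1l2 was at 0.942 and Mthfd2 at 0.920.

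**Figure D4:**
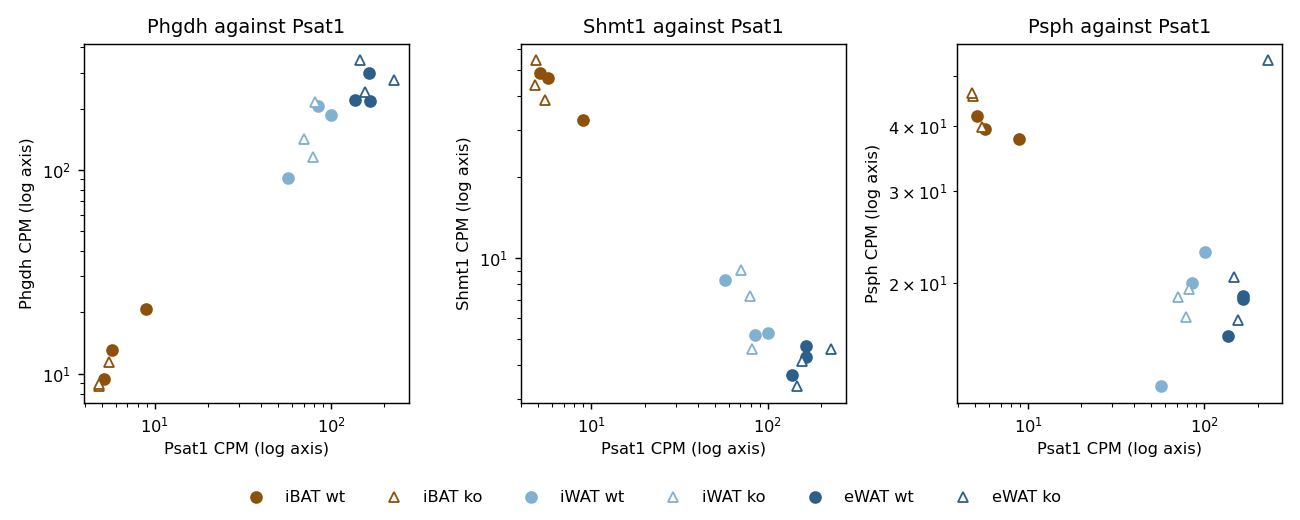
CPM of Phgdh, Shmt1 and Psph against CPM of Psat1 in each of the 18 libraries on log axes, with tissue by colour and genotype by symbol. Phgdh rises with Psat1 over the tissues (r = 0.990 on log2 CPM), Shmt1 falls (r = -0.986), and Psph forms a high iBAT cluster with a single eWAT library above it.

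Between the white tissues, Psat1 was lower in iWAT than in eWAT (log2 difference -1.08 ± 0.16, edgeR adjusted p = 0.000516), and so was Mthfd2 (-1.85 ± 0.54, edgeR adjusted p = 0.0391), while Shmt1 (0.68 ± 0.17, edgeR adjusted p = 0.0217) and Aldh1l2 (2.11 ± 0.50, edgeR adjusted p = 0.0138) were higher in iWAT. Thus 4 of the 9 members were called, 2 higher and 2 lower, compared with 10.2% of all genes, 5.70% higher and 4.50% lower. Groups did not overlap for Psat1 and Phgdh, both lower, compared with 4.62% of all genes, 2.30% higher and 2.33% lower. These white fat libraries are those against which the low Psat1 level of iBAT was seen. Phgdh was at -0.75 ± 0.24 (edgeR adjusted p = 0.0510), and it passed in 8 of 32 alternatives, among them library totals (edgeR adjusted p = 0.0235) and those without iBAT wild type replicate 3, iWAT wild type replicate 1 or iWAT knock out replicate 1 (edgeR adjusted p = 0.0347, 0.0459 and 0.0292). Mthfd2 was at -1.65 with the mouse as a block (edgeR adjusted p = 0.0617) and at -1.07 without eWAT knock out replicate 3 (edgeR adjusted p = 0.0790). The Mthfd2 call was lost in 18 of 32 alternatives, among them those without any 1 of the iBAT libraries, any 1 of the iWAT libraries other than wild type replicate 3, eWAT wild type replicate 3 or eWAT knock out replicate 3 (edgeR adjusted p = 0.0504 to 0.0790). The Shmt1 call was lost in 8 of 32, among them those without iWAT knock out replicate 2 or eWAT wild type replicate 1 (edgeR adjusted p = 0.0501 and 0.0510), and that of Aldh1l2 in 2 of 31 and of Psat1 in 1 of 32. Psph, Shmt2, Mthfd1 and Mthfd1l were at -0.34 ± 0.24, -0.64 ± 0.52, -0.19 ± 0.11 and -1.40 ± 1.10, and their lowest edgeR adjusted p was 0.294. Without eWAT knock out replicate 3 the signs of Psph, Shmt2 and Mthfd1l turned, to 0.02, 0.42 and 0.93, and none passed.

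In 3 of the 4 libraries with RNA of other tissue, members of the mitochondrial arm stood above the other libraries of the tissue. For the lymph node pair, the range compared was that of the other 4 iWAT libraries. In eWAT knock out replicate 3, Shmt2 was at 152.6 CPM against 15.1 to 18.8 CPM in the other eWAT libraries, Mthfd1l at 90.7 CPM against 1.73 to 4.70 CPM, Mthfd2 at 97.7 CPM against 10.4 to 30.6 CPM and Psph at 53.6 CPM against 15.8 to 20.5 CPM. Psat1 and Aldh1l2 were above the others as well, Phgdh and Shmt1 within their range and Mthfd1 below it. In the same library the adipocyte markers summed to 11562 CPM, compared with 17536 to 26053 CPM in the others. In the pair of iWAT libraries with lymph node markers, Mthfd2 was at 18.8 and 10.6 CPM against 3.60 to 5.84 CPM in the other 4, Mthfd1l at 14.3 and 7.61 CPM against 1.38 to 1.97 CPM, and Shmt2 at 36.4 and 25.1 CPM against 16.3 to 19.2 CPM, while Phgdh was at 91.5 and 115.2 CPM against 141 to 214 CPM. Psph and Mthfd1 lay below the other 4 in both libraries and Psat1 in wild type replicate 3, and the adipocyte markers summed to 8760 and 13021 CPM against 22173 to 25586 CPM. Leukocyte markers (3411 and 2391 CPM against 485 to 887 CPM) and dividing cell markers (212 and 161 CPM against 67.0 to 83.4 CPM) were high in the same pair. In iWAT knock out replicate 1, with skeletal muscle markers, Shmt2, Mthfd2, Mthfd1l and Aldh1l2 lay within the range of the other iWAT libraries, the lymph node pair included. Without that pair in the range, Mthfd2 at 5.84 CPM lay above 3.60 to 4.84 CPM and Mthfd1l at 1.97 CPM above 1.38 to 1.91 CPM. Phgdh lay above the other iWAT libraries at 214 CPM and Shmt1 below them at 4.60 CPM. The part of these markers in the values was not tested. In iBAT the leukocyte markers summed to 104 to 282 CPM, against 485 to 3411 CPM in iWAT and 268 to 895 CPM in eWAT. The dividing cell markers summed to 43.3 to 55.3 CPM in iBAT, against 67.0 to 212 CPM in iWAT and 69.6 to 99.0 CPM in eWAT. Stromal progenitor markers summed to 498 to 771 CPM in iBAT, against 3087 to 9872 CPM in iWAT and 1267 to 2730 CPM in eWAT, and 8 of the 8 passed as lower in iBAT than in iWAT and 6 of the 8 than in eWAT. Mesothelial markers summed to 4.02 to 6.89 CPM in iBAT, 3.12 to 55.5 CPM in iWAT and 70.0 to 126 CPM in eWAT. Of these 6 markers, 4 were lower and 1 higher in iBAT than in iWAT, and 5 were lower than in eWAT. In the same comparisons 30.3% and 30.2% of all genes were lower in iBAT, and 24.0% and 24.4% higher. Without the 4 libraries Phgdh and Psat1 were at -3.85 and -3.83 against iWAT. There the median log2 difference was -1.81 for the stromal progenitor markers and -1.76 for the leukocyte markers. The part of these markers in the differences between brown and white fat was not tested.

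No member differed past the threshold between knock out and wild type mice. Across tissues 0 of the 9 members passed, and 0 had an unadjusted p under 0.05, in a comparison in which 0.00534% of all genes were called by edgeR, that is Gm15551 alone. This fit had no term for the mouse, so its SE and p treat the 3 libraries of a mouse as separate. With counts summed per mouse 0 members passed, and 0 of 20600 genes were called. The log2 differences of knock out and wild type across tissues ranged from -0.12 ± 0.19 for Phgdh to 0.77 ± 0.94 for Mthfd1l, and Psat1 was at -0.07 ± 0.14. Without the 4 libraries with other tissue they ranged from -0.72 ± 0.34 for Aldh1l2 to 0.16 ± 0.14 for Shmt1, and Mthfd1l was at -0.23 ± 0.29 and Psat1 at -0.24 ± 0.12, with 0 members past the threshold. Within iBAT, iWAT and eWAT 0 members passed as well, with 0.00%, 0.00% and 0.00534% of all genes called, and the interaction of genotype and tissue had no member past the threshold, with 0.00% of all genes called. With limma voom 0 of the 9 members passed in each of these tests too, and DESeq2 gave 0 of the 7 for which it returned a p, which leaves out Shmt2 and Mthfd1l. The smallest unadjusted p of the interaction was 0.0598, for Mthfd1l.

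In iBAT, Psat1 was at 5.14, 5.70 and 8.92 CPM in the wild type and 4.85, 4.81 and 5.47 CPM in the knock out libraries, and Phgdh at 9.41, 13.1 and 20.9 CPM and 8.69, 8.94 and 11.5 CPM. The genotypes overlapped for both genes. Only Aldh1l2 did not overlap in iBAT, at 0.619, 0.972 and 1.03 CPM in wild type and 0.235, 0.526 and 0.515 CPM in knock out, which rest on 3 to 16 counts, and 4.94% of all genes did not overlap in that comparison, 2.32% higher and 2.63% lower. In iWAT 0 of the 9 members did not overlap between genotypes (4.92% of all genes, 2.80% higher and 2.13% lower), and in eWAT 0 of the 9 (5.25%, 2.94% higher and 2.31% lower). In eWAT, 3 of the 9 had an unadjusted p under 0.05, compared with 4.35% of all genes, and they were Shmt2 (log2 difference 1.87 ± 0.64), Mthfd1l (3.51 ± 1.29) and Psph (0.77 ± 0.33), each with an edgeR adjusted p of 1. Without eWAT knock out replicate 3 their differences were -0.05 ± 0.27, -0.33 ± 0.90 and 0.08 ± 0.20. The differences of Phgdh and Shmt1 passed in each genotype: Phgdh in iBAT differed from iWAT by -3.48 ± 0.36 in wild type and -4.01 ± 0.37 in knock out, and Shmt1 by 2.77 ± 0.27 and 2.71 ± 0.27. In wild type 3 of the 8 members passed against iWAT and 4 against eWAT (35.3% of all genes called in both), and in knock out 4 and 4 (35.3% and 38.3% of all genes). Calls over all libraries that did not pass within a genotype were those of Psph against eWAT in knock out (0.54, edgeR adjusted p = 0.204), of Aldh1l2 against iWAT in wild type (-0.80, edgeR adjusted p = 0.361), and of Mthfd1l against iWAT in both (edgeR adjusted p = 0.132 and 0.170) and against eWAT in wild type (edgeR adjusted p = 0.376). Between iWAT and eWAT 0 of 9 passed in wild type (1.56% of all genes) and 1 in knock out (1.26%), Psat1.

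**Figure D5:**
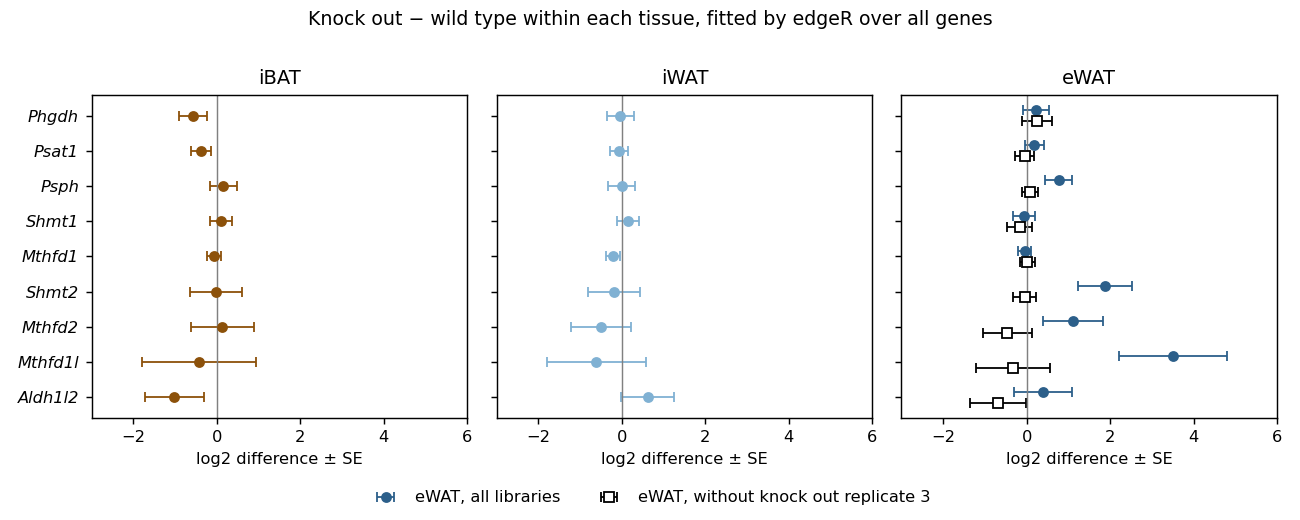
Log2 differences of knock out and wild type with standard errors in each tissue, with open squares for eWAT without knock out replicate 3. No difference passed the test, and the eWAT values of Shmt2 (1.87) and Mthfd1l (3.51) return to -0.05 and -0.33 without that library.

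Of the steps around the pathway, lower glycolysis, from which serine synthesis branches off, was mostly higher in iBAT. Of its 7 genes 6 were higher than in iWAT and 6 higher than in eWAT with TMM, compared with 24.0% and 24.4% of all genes. With library totals, where 1438 and 1579 of all 18728 genes were higher, 5 were higher in each, 2 were lower than in iWAT (Pgam2 and Bpgm) and 1 lower than in eWAT (Bpgm). Eno1, the enolase, which acts after the branch point (2.79 ± 0.24 and 3.86 ± 0.25 on the log2 scale, against iWAT and eWAT), Pkm, the pyruvate kinase, also after it (2.67 ± 0.18 and 3.38 ± 0.19), and Pgk1, the phosphoglycerate kinase, before it (2.65 ± 0.16 and 3.08 ± 0.16), were higher under both scalings. The median of the list was 2.43 and 2.58.

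Carriers of serine and glycine were mostly lower in iBAT. Of 11 genes 7 were lower than in iWAT and 8 lower than in eWAT with TMM, compared with 30.3% and 30.2% of all genes. With library totals 11 of 11 were lower in each, where 12804 and 13159 of all 18728 genes were. The neutral amino acid carriers Slc7a10 (-3.88 ± 0.29 and -3.84 ± 0.29) and Slc38a1 (-4.43 ± 0.83 and -2.37 ± 0.78) and the glycine carrier Slc6a9 (-1.07 ± 0.28 and -2.44 ± 0.29) were among them. Without the 4 libraries with other tissue Slc38a1 was at -2.18 to iWAT. Slc38a4, also a neutral amino acid carrier, passed as lower against both, but its mean of 0.101 CPM in iBAT lay below the 0.186 to 0.235 CPM that 3 counts give in these libraries, so no fold is given. Its means were 2.71 CPM in iWAT and 6.37 CPM in eWAT, and it did not pass against iWAT without the 4 libraries. Slc25a38, the mitochondrial glycine carrier, was the only gene of the list that was higher in iBAT with TMM (0.48 ± 0.12 and 0.47 ± 0.12), and it turned to -0.33 and -0.39 with library totals. Against iWAT, Slc25a38 did not pass without the 4 libraries (0.27, edgeR adjusted p = 0.0630).

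Of the 8 genes tested that use serine, 3 were higher and 3 lower in both comparisons with TMM, and with library totals 3 were higher and 5 lower against iWAT and 2 higher and 5 lower against eWAT. Of all genes 24.0% were higher and 30.3% lower against iWAT and 24.4% and 30.2% against eWAT with TMM, and 12804 and 13159 of 18728 were lower with library totals. Cbs (-3.11 ± 0.49 and -3.31 ± 0.50) and Cth (-1.97 ± 0.67 and -3.003 ± 0.71), which lead from serine and homocysteine to cysteine, were lower in iBAT, as was Sptlc2 of sphingolipid synthesis (-0.82 ± 0.11 and -0.77 ± 0.11). Sdsl, a serine dehydratase-like gene (2.52 ± 0.24 and 2.27 ± 0.24), Ptdss2, which makes phosphatidylserine (1.70 ± 0.12 and 1.74 ± 0.12), and Srr, the serine racemase (1.29 ± 0.21 and 1.06 ± 0.20), were higher, and with library totals Srr was at 0.16 to eWAT and did not pass there. In the glycine cleavage system, which makes folate-bound carbon from glycine in mitochondria, Gcsh (1.499 ± 0.22 and 1.36 ± 0.22) and Dld (2.38 ± 0.22 and 2.75 ± 0.23), which also serves other dehydrogenases, were higher, 2 of 4 genes in each comparison under both scalings. The glycine decarboxylase Gldc was lower than in eWAT over all libraries (-6.28 ± 2.15), but at -0.26 and not past the test without the 4 libraries with other tissue. Against iWAT, Gldc (-3.81 ± 0.34) and Amt (-0.51 ± 0.18), of the same system, passed as lower without these libraries. Over all libraries 0 of the 4 genes were lower than in iWAT with TMM, and 2 (Gldc and Amt) were lower in both comparisons with library totals.

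Other folate genes were mixed, with 3 higher and 5 lower of 14 in both comparisons with TMM, while with library totals 1 was higher and 8 lower against iWAT and 1 higher and 10 lower against eWAT. Without the 4 libraries with other tissue 6 were higher and 6 lower of 15 against eWAT. Of all genes 24.0% and 24.4% were higher and 30.3% and 30.2% lower with TMM, 12804 and 13159 of 18728 were lower with library totals, and 11513 of 20162 were called against eWAT without the 4 libraries. Slc25a32, the mitochondrial folate carrier, was higher in iBAT (1.79 ± 0.14 and 2.06 ± 0.14), also with library totals, where it still passed. Slc19a1, the reduced folate carrier (0.62 ± 0.21 and 1.17 ± 0.21), and Mthfs (0.50 ± 0.15 and 0.62 ± 0.15) were higher with TMM, but with library totals Slc19a1 turned to -0.15 against iWAT and Mthfs to -0.34 and -0.26. The folate receptor gene Folr2 (-3.65 ± 0.59 and -2.78 ± 0.57) and Fpgs, which adds glutamates to folate (-0.85 ± 0.33 and -1.61 ± 0.33), were among those lower. Aldh1l1, the cytosolic counterpart of Aldh1l2, was lower than in iWAT (-1.03 ± 0.25) and at -0.43 ± 0.25 to eWAT, and Folr1 passed as lower than in eWAT, with means of 0.200 CPM in iBAT, near the 0.186 to 0.235 CPM of 3 counts, and 4.73 CPM in eWAT.

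Of the 6 genes of purine synthesis, 3 were higher in iBAT than in iWAT and 4 higher than in eWAT with TMM, compared with 24.0% and 24.4% of all genes. With library totals 4 were lower and 1 higher in each, where 12804 and 13159 of all 18728 genes were lower. Paics was the gene higher under both (1.08 ± 0.09 and 1.03 ± 0.08 with TMM, 0.28 and 0.16 with library totals). Of 10 genes of the methionine cycle, 4 were higher and 1 lower against iWAT and 2 higher and 3 lower against eWAT with TMM, and with library totals 1 was higher in each and 5 and 7 were lower. Without the 4 libraries with other tissue 4 were higher and 4 lower of 11 against eWAT. Of all genes 24.0% and 24.4% were higher and 30.3% and 30.2% lower with TMM, and 12804 and 13159 of 18728 were lower with library totals. Ahcyl1, related to the enzyme that cleaves adenosylhomocysteine, was higher (2.82 ± 0.13 and 3.10 ± 0.13), and Nnmt, which methylates nicotinamide, was lower (-2.27 ± 0.23 and -2.75 ± 0.24).

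Among Atf4 and genes known as its targets outside the members, 10 of 34 were higher and 10 lower in iBAT than in iWAT, and 7 were higher and 13 lower than in eWAT, with medians of 0.12 and -0.02, while of all genes 24.0% were higher and 30.3% lower than in iWAT and 24.4% and 30.2% than in eWAT. With library totals 3 were higher and 23 lower, and 3 higher and 25 lower, where 12804 and 13159 of all 18728 genes were lower. The medians were -0.67 and -0.89, beside medians of all genes of -0.95 and -1.04. Atf4 itself was at 0.05 ± 0.16 and -0.22 ± 0.16 with TMM (edgeR adjusted p = 0.802 and 0.277), and at -0.78 and -1.11 with library totals. Stc2 (-4.32 ± 0.35 and -5.08 ± 0.36) and Gpt2, an alanine aminotransferase (-3.24 ± 0.27 and -3.81 ± 0.28), were lower under both scalings, and Cebpb, a transcription factor of fat cells (2.32 ± 0.29 and 3.20 ± 0.30), Vldlr, a lipoprotein receptor (1.93 ± 0.23 and 2.48 ± 0.23), and Atf5 (1.68 ± 0.24 and 1.57 ± 0.24) were higher. The amino acid carrier Slc7a5 was lower (-2.69 ± 0.62 and -3.44 ± 0.63), but at -1.197 and not past the test against iWAT without the 4 libraries, and Slc7a11 was lower than in eWAT (-3.69 ± 1.41), but at -0.76 and not past it without them.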

How the data were processed

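Sequencing covered polyadenylated RNA as paired-end libraries. Per the labels and the study's methods, cutadapt was used for trimming and salmon for quantification on the GENCODE M22 transcriptome (GRCm38), with or without RNAcentral sequences. What the authors deposited are estimated counts, 1 whole number per gene and library, not normalised. How strand was handled and how transcripts were summed to genes is not given in the sources used here. Groups and mouse identity were taken from the labels.

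Tests used edgeR 4.0.16 in R 4.3.3 (quasi-likelihood F-test) after filterByExpr by group and TMM scaling, with Benjamini-Hochberg adjustment over all 18728 genes and a threshold of 0.05. Tissue and genotype terms gave the tissue differences and the genotype difference across tissues, and 6 group means gave the rest. SE is the log2 difference divided by the square root of F. The step was tested on data simulated for iBAT minus iWAT, with libraries drawn independently. It recovered 56% of true log2 differences of -1 and of 1, and 86% and 94% of those of -2 and 2. Of its calls 2.67% were false. The genotype tests were not simulated. Lengths and positions came from GENCODE M21. Near copies were transcripts with at least 90% identity over 100 bases (blastn 2.17.0). The correlations used log2 CPM with a prior count of 2. The text names the members, the 10 genes with the highest Pearson correlation with Psat1 and, from each other list, up to 3 genes past the threshold in each direction with the largest differences. Atf4, Amt, Pgam2 and Bpgm are named beyond that rule and were chosen after their values were seen, and some genes that the rule takes are not reported here. A count of 0 allows up to 3 counts, and such limits cover counting error only.

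The members, lists and tests were chosen with earlier results of these data known. Alternatives were DESeq2 1.42.0 and its size factors, limma voom 3.58.1 with quality weights, other filters, robust dispersions, subsets of libraries, the mouse or the replicate number as a block and each library left out. After seeing the data, library totals, another length and the removal of libraries with other tissue were added. Same-numbered libraries of a genotype are from the same mouse by its identifier. Deviations from group means correlated at -0.165 to 0.326 (median 0.0573, 18 pairs) between tissues of a mouse, and at -0.465 to 0.551 (9 pairs) between same-numbered mice of both genotypes, which share only a number.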

Additional observations from a re-analysis of the deposited data

Results flagged for a closer look

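In 9 of 27 combinations of gene and tissue, 1 library stood apart from the other 5 by a gap, relative to the whole range, above Dixon's critical value, where chance gives about 1 in 20, or 1.35. In 5 of them the library was eWAT knock out replicate 3, which also carried the epididymis markers: Psat1 at 228 CPM (next highest 165 CPM), Psph at 53.6 CPM (20.5 CPM), Shmt2 at 152.6 CPM (18.8 CPM), Mthfd2 at 97.7 CPM (30.6 CPM) and Mthfd1l at 90.7 CPM (4.70 CPM). In iBAT wild type replicate 3, Psat1 was at 8.92 CPM (next highest 5.70 CPM) and Phgdh at 20.9 CPM (13.1 CPM). The mitochondrial share of counts in that library was 22.9%, the lowest of the iBAT libraries, and its skeletal muscle markers summed to 24.7 CPM against at most 8.46 CPM in the other iBAT libraries. Shmt2 in iBAT wild type replicate 2 was at 31.0 CPM (next highest 26.0 CPM), and Aldh1l2 in iWAT knock out replicate 2, one of the pair with lymph node markers, at 4.28 CPM (2.14 CPM). The part of the other tissue in these values was not tested.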

How the results depend on the processing

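Phgdh and Shmt1 kept their direction and stayed past the threshold in both comparisons of iBAT with white fat under all 32 alternatives, and Mthfd2 did so against eWAT. Of the 8 members, 5 passed against iWAT, but 3 with at least 10 counts in every library (which leaves out Mthfd1l and Aldh1l2, with 7595 of 12752 genes called), 3 with wild type libraries only (6595 of 17450 genes called) and 3 without the pair of lymph node libraries (8742 of 19250). Leaving out each library in turn gave 4 to 6 against iWAT and 5 to 6 against eWAT, and all alternatives 3 to 6 and 4 to 7, with 6 and 7 without the 4 libraries with other tissue. Between iWAT and eWAT 4 members passed, but 0 with wild type libraries only (247 of 17450 genes, from 1911 of 18728), 1 with knock out libraries only (82 higher and 41 lower of 17494), 2 with only the libraries of both tissues (854 of 18431) and 2 without iWAT knock out replicate 2 (1080 of 19674), with a range of 2 to 4 over the libraries left out. Direction turned for Shmt2 between iBAT and eWAT, from -0.43 to 0.62 with limma voom and quality weights, 0.65 without eWAT knock out replicate 3 (leaving out each library in turn gave -0.62 to 0.65) and 0.64 without the 4 libraries with other tissue. With library totals it turned for Psph (-0.075) and Aldh1l2 (-0.31) against eWAT, for Shmt2 against iWAT (-0.65) and for Mthfd1 against iWAT (-0.57) and eWAT (-0.84). Within a genotype, the iBAT minus eWAT difference of Shmt2 was 0.64 in wild type and -1.25 in knock out. That of Aldh1l2 was 1.18 and -0.24, and none of these passed. Of the 10 genes most like Psat1, 3 to 10 were shared when a library was left out, 3 of them without eWAT knock out replicate 3 and 6 each without iWAT wild type replicate 2, iWAT knock out replicate 2 and eWAT wild type replicate 1, while Phgdh stayed in place 1 in each.

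With the mouse as a block, 4 of 8 members passed against iWAT, 4 of 8 against eWAT and 3 of 9 between iWAT and eWAT. Of all 18728 genes 10414, 10430 and 1732 were called there. The calls lost were those of Mthfd1l and Mthfd2 given above, and the block changed no other call. With the replicate number as a block, 0 members passed in the genotype tests. No genotype test passed for a member under any alternative that gave it a p. DESeq2 gave none for Shmt2 and Mthfd1l. Low counts limit Mthfd1l and Aldh1l2 in iBAT, with 7 to 19 and 3 to 16 counts a library. The cause of these changes was not tested.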
